A study of Mus musculus with 39 samples.

Results

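The genes of fatty acid synthesis were read on 39 one-colour Agilent arrays of mouse subcutaneous adipose tissue, the fat layer under the skin. They were 10 of the 29411 gene names on the array: Fasn, Acaca, Acacb, Acly, Me1, Elovl6, Srebf1, Mlxipl, Thrsp and Pnpla3. They were chosen by gene name, and every probe carrying a member's name was kept, which gave 14 of 40628 probes. The mice were C57BL/6J, weaned at 3 to 4 weeks of age, with food and water at will. LFC is the low fat diet, with 10% of calories from fat, and had 10 arrays. HFC is the high fat diet, with 60% of calories from fat and more sucrose, and had 11 arrays. HF5, HF20 and HF75 are that high fat diet with 5, 20 or 75 µg of KAL-1, a botanical formulation, and had 6 arrays each. LFC and HFC were read at Day 6, Day 10, Day 14 and Week 0 and then every 3 weeks from Week 3 to Week 18, the 3 KAL-1 diets only from Week 3 to Week 18, and HFC alone at Day 1. In the study's methods the weeks are counted from Day 14, so Day 14 and Week 0 are the same age on diet. Each diet had 1 array at each time point, and the labels do not say whether an array is a pool or 1 of the 5 mice taken per group, nor the sex of the mice. Fat and sucrose change together between LFC and the other diets, so their effects cannot be told apart.

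De novo fatty acid synthesis turns carbohydrate into fat. Citrate exported from mitochondria is split by ATP citrate lyase (Acly) into acetyl-CoA, acetyl-CoA carboxylase (Acaca in the cytosol, Acacb at the mitochondrial membrane) makes malonyl-CoA, and fatty acid synthase (Fasn) builds palmitate with NADPH that malic enzyme (Me1) helps to supply. Elovl6 lengthens palmitate to stearate. Srebf1 encodes SREBP-1, a transcription factor that insulin activates, and Mlxipl encodes ChREBP, which responds to glucose, and both drive the enzymes. Thrsp, known as Spot 14, is a protein abundant in lipogenic tissues, and Pnpla3 is a lipid droplet protein whose gene is a known target of both factors. In liver and fat, carbohydrate feeding and insulin are known to raise these genes and dietary fat to lower them.

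Levels are log2 of the processed spot intensity minus the log2 75th percentile of the array, so a level of 0 is that percentile and a difference of 1 is a 2-fold change. Each of 8 members had 1 probe, Fasn had 2 and Acaca had 4. A gene is represented by its brightest probe unless a probe is named. The probes matter most for Fasn, because its brighter probe reached the scanner's ceiling on many arrays, for Acaca, whose probes differ in brightness, and for Me1, whose older symbol Mod1 names a further probe. The first 30 of their 60 bases are shown here in lower case, as the array files give them.
Fasn probe P321126: gcttgggttttgacttttctgcagctgtca
Fasn probe P100252: attggtagggtacaaaggtgttcagaggat
Acaca probe P318040: gaagatgatcataactcgtataacatccag
Acaca probe P439426: tgaaggggaatccaggtacaagataacaga
Acaca probe P23177: gccccacattcccagagtctggtcatactt
Acaca probe P595124: tcccatccaaacagagggaacatccccacg
Me1 probe 01451: cttcctaatgacaacttgtgactaacggtt
Mod1 probe P266861: attaatttactggacacgttgataatggca

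The brighter Fasn probe, P321126, was saturated on 11 of 39 arrays, so its level there is a lower bound set by the array and not by the gene. Its levels ran from 3.01 to 8.0. The dimmer probe, P100252, was never saturated, was well above background on every array and ran from -3.71 to 5.92. Over the 39 arrays the probes gave Pearson's r = 0.76 and Spearman's rho = 0.89, each with a permutation p of 1e-05, the smallest that 100000 permutations give. Without the 2 arrays farthest from the median, r was 0.84. At LFC Day 6 and LFC Week 12 P100252 read 5.92 on both arrays, while the saturated P321126 read 6.31 and 6.03.

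**Figure D1:**
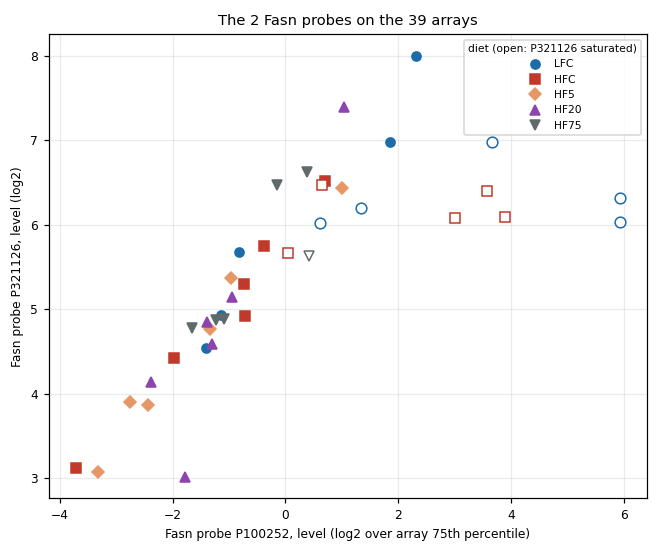
Level of Fasn probe P321126 (y axis, log2) against Fasn probe P100252 (x axis, log2) on each of the 39 arrays, coloured by diet, with open symbols where P321126 was saturated. The 11 open points lie between 5.63 and 6.98 on the y axis while P100252 ran up to 5.92 on the x axis.

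Saturation also touched Thrsp on 3 arrays, Me1 on 2, and Elovl6 and Srebf1 on 1 each. In all, 18 values on 11 arrays were saturated, and the LFC array of Week 12 held the most, with 5 members. Acacb was the dim member: it was flagged well above background on 19 of the 39 arrays, and on none of the HF5 arrays. The 19 include the HF20 array of Week 15, where its outlier spot was left out. The other 9 members were well above background on all arrays that measured them by their brightest probe. The 3 dimmer Acaca probes were flagged well above background on 23, 27 and 34 of 39 arrays, and the 6 pairs of Acaca probes gave r of 0.52 to 0.91. The Mod1 probe, which carries an older name of Me1 and is outside the members, ran from -0.80 to 6.29 and followed the Me1 probe with r = 0.97.

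RefSeq (GRCm38.p6) gave promoter sequence for 10 of the 10 members, in 14 entries, and the 250 bases before each start were searched on both strands for the motifs known for this pathway. An E box, CACGTG, bound by the USF factors and, in forms close to it, by ChREBP and SREBP-1, lay in 6.02% of all 32851 promoters and in 1 member, Mlxipl itself. A sterol element, TCACNCCAC, lay in 1.05% of promoters and again only in Mlxipl among the members, before its second start. CCAAT, the box of the NF-Y factor, lay in 33.8% of promoters and in 8 of the members' 14, from 7 members. GGGCGG, the GC box bound by Sp1, lay in 32.7% of promoters and in 6 of the 14, from 5 members, Acly, Me1, Mlxipl, Pnpla3 and Srebf1. These matches are descriptions of letters and not shown sites. The promoters of Fasn and Acly are shown as examples with several CCAAT or GC boxes among the enzymes, and those of Mlxipl because they alone held the E box and the sterol element. The capitals mark the motifs named.
Fasn, chr11:120824548-120824797, minus strand, CCAAT in capitals on either strand, overlapping where the run is longer: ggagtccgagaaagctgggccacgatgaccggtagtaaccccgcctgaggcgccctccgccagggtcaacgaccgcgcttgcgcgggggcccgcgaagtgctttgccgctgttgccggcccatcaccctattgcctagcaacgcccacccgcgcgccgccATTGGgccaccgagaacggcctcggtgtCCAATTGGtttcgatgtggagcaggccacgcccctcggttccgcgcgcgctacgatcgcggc
Acly, chr11:100528001-100528250, minus strand, GGGCGG in capitals on either strand: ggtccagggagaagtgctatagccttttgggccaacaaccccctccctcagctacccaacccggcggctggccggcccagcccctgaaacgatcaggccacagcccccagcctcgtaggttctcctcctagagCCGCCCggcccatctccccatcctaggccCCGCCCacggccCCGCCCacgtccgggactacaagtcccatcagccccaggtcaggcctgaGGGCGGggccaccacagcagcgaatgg
Mlxipl, chr5:135089640-135089889, plus strand, E box, CCAAT box and GC boxes in capitals: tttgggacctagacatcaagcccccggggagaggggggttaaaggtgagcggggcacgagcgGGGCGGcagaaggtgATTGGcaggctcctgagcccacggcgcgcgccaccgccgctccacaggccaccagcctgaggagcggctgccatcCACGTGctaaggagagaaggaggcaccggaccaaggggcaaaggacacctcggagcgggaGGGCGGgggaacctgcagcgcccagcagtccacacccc
Mlxipl, second start, chr5:135106641-135106890, plus strand, TCACNCCAC in capitals: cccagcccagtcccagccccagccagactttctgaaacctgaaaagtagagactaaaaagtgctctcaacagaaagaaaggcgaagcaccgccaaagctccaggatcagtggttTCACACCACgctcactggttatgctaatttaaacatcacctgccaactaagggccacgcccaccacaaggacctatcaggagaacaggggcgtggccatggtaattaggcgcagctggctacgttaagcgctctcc

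The arrays differed in brightness, with 75th percentiles of 108 to 1285 scanner units and 49.3% to 87.8% of spots well above background. The saturation ceiling stood between 5.67 and 9.25 on the log2 scale used here, so bright members could be read higher on some arrays than on others. At 8 of 11 time points all arrays were scanned on 1 day. At Day 6 LFC and HFC were scanned on different days, as were LFC and HFC at Week 12, and at Week 6 HF20 and HF75 were scanned on another day than LFC, HFC and HF5. The HF20 array of Week 15 had 4936 spots flagged as outliers, and Elovl6 and Acacb have no value there. The deposited log2 ratios matched the array of their own label in every case but 1 pair: the HF5 and HF20 ratios of Week 12 correlated at r = 0.999 with each other's arrays and at 0.664 and 0.665 with their own, so those 2 labels may be exchanged. At Week 12 the title of the LFC array gives no week, so its time point rests on the time point label alone, and the title of the HF5 array has a B where those of HF20 and HF75 have an S. The labels are used as given. All 8 markers of mature adipocytes were above background in every group.

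The levels of the members moved far from array to array, and mostly together. The LFC arrays of Day 6 and Week 12 were among the 5 highest of all arrays for 9 of the 10 members each, and the HFC array of Week 15 was among the 5 lowest for 8 members. In LFC the mean of the members, each standardised over the arrays, was highest at Day 6 (2.17), Week 12 (2.04) and Day 10 (1.31), lay at 0.891 and 0.853 at Week 9 and Week 18, and was lowest at Week 3 (-0.724), Week 15 (-0.545) and Week 6 (-0.494). In HFC they were high at Day 6, Day 10 and Week 3 and low from Week 12 on.

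**Figure D2:**
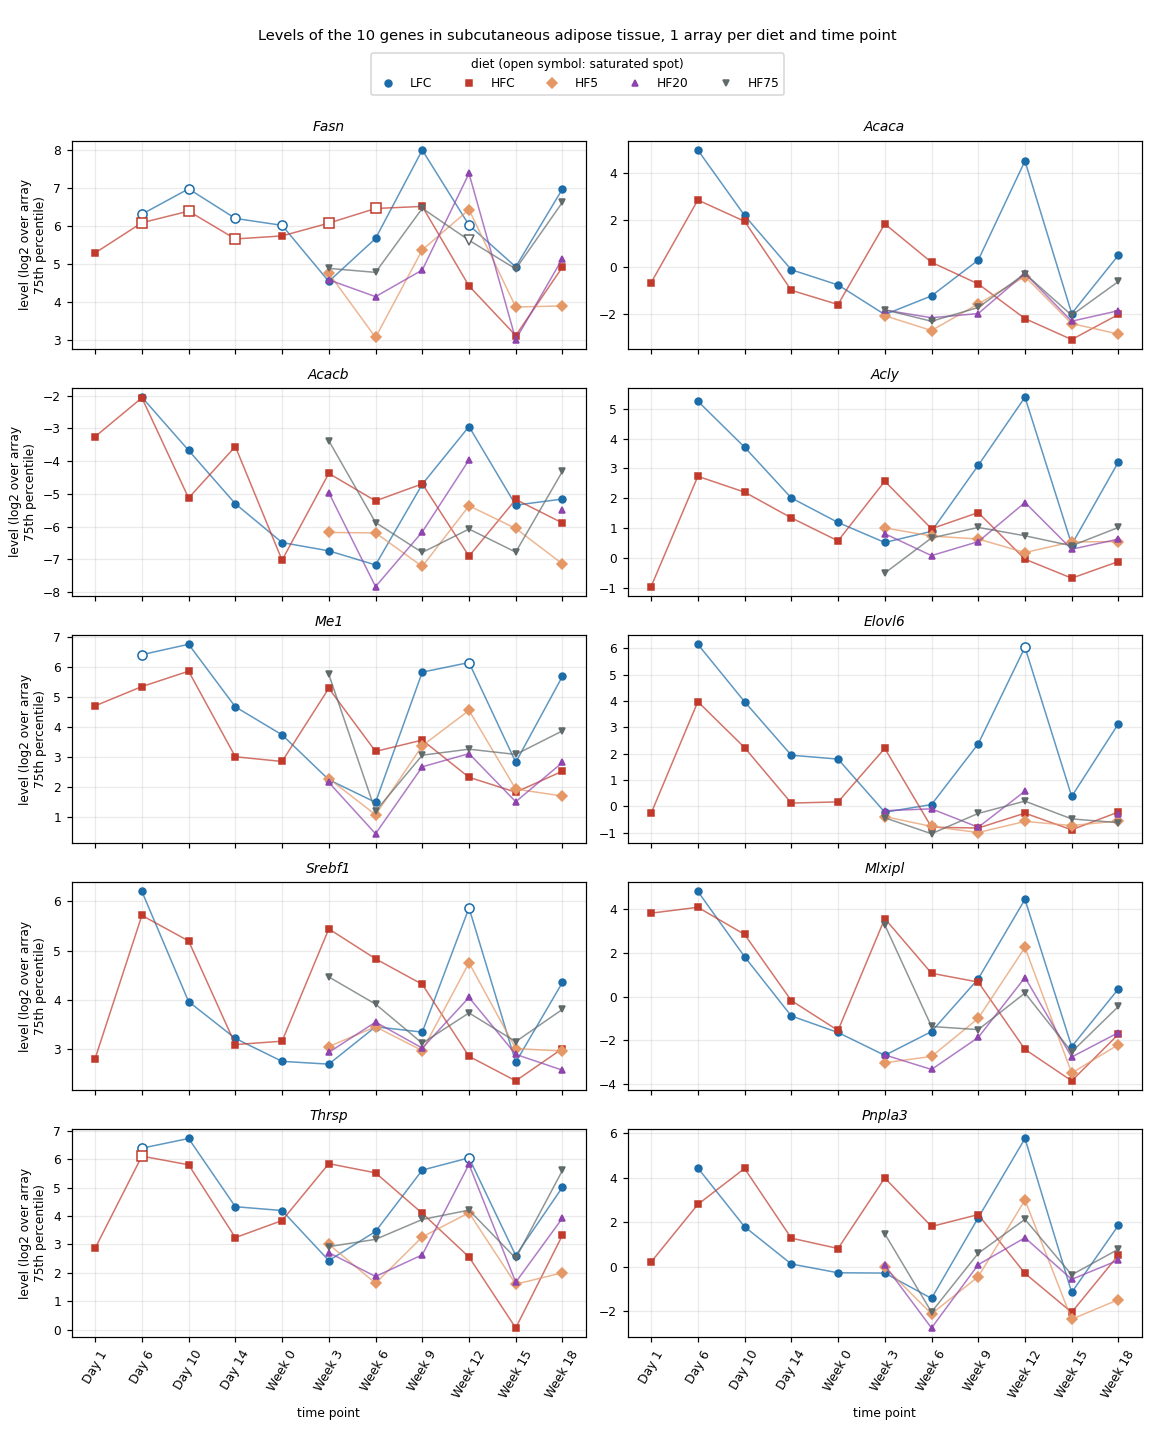
Level of each of the 10 genes (y axis, log2 over the 75th percentile of the array, a separate scale in each panel) at each time point (x axis), with 1 array per diet and time point and no error bars, since an array has no replicate. Open symbols are saturated spots, which are lower bounds. In most panels the LFC line is high at Day 6 and Week 12, where Elovl6 reached 6.16 and at least 6.05, and it lies under HFC at Week 3 in every panel.

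Acly, the enzyme that opens the pathway, ran in LFC from 0.44 (Week 15) through a median of 2.55 to 5.39 (Week 12) over 10 time points. In HFC it ran over the same time points from -0.68 (Week 15) through 1.16 to 2.73 (Day 6). The HFC level was the lower one at 8 of 10 time points, the exceptions being Week 3, where HFC read 2.57 against 0.51, and Week 6, where it read 0.97 against 0.89. From Week 3 to Week 18 Acly lay between 0.18 and 1.00 in HF5, between 0.07 and 1.85 in HF20 and between -0.51 and 1.02 in HF75. The KAL-1 diets were thus narrow, with SDs of 0.27 to 0.62 over 6 arrays each. Over the same weeks the SD was 1.22 in HFC and 1.98 in LFC, which includes the 5.39 of Week 12.

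Acaca, the carboxylase that makes malonyl-CoA for synthesis, ran in LFC from -2.02 (Week 3) through 0.09 to 4.97 (Day 6) and in HFC from -3.08 (Week 15) through -0.85 to 2.85 (Day 6). HFC was lower at 8 of 10 time points. At Week 12 LFC read 4.51 and the 4 high fat arrays read -2.19, -0.40, -0.27 and -0.28. Acacb, the carboxylase whose malonyl-CoA restrains fatty acid oxidation, ran from -7.17 to -2.05 in LFC and from -7.02 to -2.07 in HFC. The diets overlapped for Acacb throughout, and HFC was lower at 5 of 10 time points.

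Fasn, the synthase, ran by the bright probe in LFC from 4.54 (Week 3) through 6.11 to 8.0 (Week 9), with 5 of 10 values saturated, and in HFC from 3.12 (Week 15) through 5.91 to 6.52 (Week 9), also with 5 of 10 saturated. By the dim probe LFC ran from -1.40 through 1.59 to 5.92 and HFC from -3.71 through 0.34 to 3.89. The span of the dim probe was wider in both diets, with SDs of 2.69 and 2.44 (n = 10 each) against 1.01 and 1.09. Me1 ran from 1.5 (Week 6) through 5.18 to 6.76 (Day 10) in LFC and from 1.84 (Week 15) through 3.10 to 5.86 (Day 10) in HFC. Me1 and the dim Fasn probe were each lower in HFC at 8 of 10 time points. The bright Fasn probe was too, but at Day 6, Day 10 and Day 14 it was saturated in both diets, and its order there is that of the array ceilings.

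Elovl6, the elongase, had the largest fitted difference of HFC minus LFC among the members with saturated spots kept. With those spots left out it was -1.51, beside -1.78 for Fasn. In LFC it read 6.16 at Day 6, 3.98 at Day 10, 1.95 at Day 14, 1.80 at Week 0, -0.22 at Week 3, 0.07 at Week 6, 2.38 at Week 9, at least 6.05 at Week 12, 0.38 at Week 15 and 3.14 at Week 18. In HFC it read 3.98, 2.24, 0.13, 0.17, 2.21, -0.79, -0.82, -0.26, -0.89 and -0.21 at the same time points. HFC was lower at 9 of 10 time points, and Week 3 was the exception. HF5 lay between -0.99 and -0.38, HF20 between -0.79 and 0.58 on 5 arrays, and HF75 between -1.04 and 0.20.

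Among the regulators, Srebf1 ran from 2.68 through 3.39 to 6.21 in LFC and from 2.34 through 3.73 to 5.72 in HFC, and Mlxipl from -2.68 through -0.27 to 4.80 in LFC and from -3.84 through 0.24 to 4.08 in HFC. The diets overlapped for both, and HFC was lower at 5 of 10 time points for each. Mlxipl had the widest swings between the diets: at Week 3 HFC read 3.56 and LFC -2.68, and at Week 12 HFC read -2.41 and LFC 4.44. Thrsp ran from 2.43 through 4.67 to 6.72 in LFC and from 0.06 through 3.97 to 6.10 in HFC, lower in HFC at 8 of 10 time points. Pnpla3 ran from -1.42 through 0.96 to 5.75 in LFC and from -2.04 through 1.54 to 4.41 in HFC, lower in HFC at 4 of 10 time points.

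The first comparison asked how HFC differed from LFC at the 10 time points shared by both diets, blocking on time point. Elovl6 was lower in HFC by a fitted 1.99 log2 units, a 3.98-fold difference, with a 95% interval from 1.56-fold to 10.1-fold lower, and Acly was lower by 2.76-fold, with an interval from 1.17-fold to 6.54-fold. None of the 19876 genes tested had a limma adjusted p under 0.05, the members included, and the smallest adjusted p over all genes was 0.803. By the methods' t-test, which the study ran on replicates of a time point and which was run here over the arrays of the 10 time points, the count was also 0, with 422 genes under an unadjusted 0.05. In the limma fit 1165 genes had an unadjusted p under 0.05, 5.86% of those tested, and 775 of them, 3.9%, were lower in HFC. Of the 10 members 2 were lower by that mark, Elovl6 (unadjusted limma p = 0.00738) and Acly (0.0245). None was higher, beside 1.96% of all genes.

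The other members' fitted differences of HFC minus LFC were -1.01 for Acaca (SE 0.76), -1.0 for Me1 (SE 0.58), -0.64 for Thrsp (SE 0.58), -0.63 for Fasn by its bright probe (SE 0.34), -0.06 for Mlxipl (SE 0.93), -0.04 for Acacb (SE 0.53), 0.14 for Srebf1 (SE 0.46) and 0.26 for Pnpla3 (SE 0.83). The interval of each of these 8 genes included 0. The bright Fasn probe was saturated on 10 of these 20 arrays, and with saturated spots left out Fasn was -1.78 (unadjusted limma p = 0.00492). The median over the members was -0.63, beside -0.04 over all genes tested, and 8 of 10 members were below 0, beside 54.7% of all genes. The dim Fasn probe gave -1.32 (SE 0.87), in a fit of 27808 probes with none called.

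Week 3 and Week 12 gave the extreme differences. For all 10 members the highest difference of HFC minus LFC was at Week 3, up to 6.24 for Mlxipl. For Fasn it was at least 1.54 by the bright probe, which was saturated in HFC there, and 4.4 by the dim probe P100252. For 9 members the lowest was at Week 12. It was -6.84 for Mlxipl, while Srebf1 (-3.03), Elovl6, Me1 and Thrsp were saturated in LFC there, so that their true differences may be larger. For Fasn the lowest was -2.06 at Week 18 by the bright probe, its LFC value at Week 12 being saturated, and -7.90 at Week 12 by P100252. Without Week 3 Elovl6 was -2.48 and Acaca -1.55, and 6 of 10 members were lower at an unadjusted 0.05, beside 4.23% of all genes in either direction: Fasn (unadjusted limma p = 0.0142), Acaca (0.0367), Me1 (0.0109) and Thrsp (0.0397) joined Elovl6 and Acly. Without Week 12 Elovl6 and Acaca were -1.51 and -0.38. With the scan day as the block, which leaves out Day 6 and Week 12, Elovl6 was -1.43 (unadjusted limma p = 0.0271), Acly -0.84 (0.113) and Acaca -0.16 (0.790). Pnpla3 was then 1.28 (0.0610), Mlxipl 0.87 (0.302) and Srebf1 0.61 (0.157), all higher in HFC, and 1 of 10 members, Elovl6, was under an unadjusted 0.05, beside 15% of all genes. The difference did not shift detectably between Day 6 to Week 0 and Week 3 to Week 18: the members' interaction values ran from -0.91 to 0.21, the smallest unadjusted p was 0.609, and 0 of 19876 genes passed an adjusted 0.05, with 1.89% under an unadjusted 0.05.

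The second comparison set the mean of the 4 high fat diets against LFC from Week 3 to Week 18. All 10 members were below 0, with a median of -0.98, beside a median of -0.04 and 55.2% below 0 over all 21092 genes. No gene passed an adjusted p of 0.05 in limma, where the lowest was 0.995. With an unadjusted p under 0.05 there were 900 genes, 4.27%, and 515 of them, 2.44%, were lower on high fat. Of the members 5 of 10 were lower by that mark, Elovl6, Acly, Acaca, Me1 and Fasn, all of them enzymes. None was higher, beside 1.83% of all genes.

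Elovl6 was lower by 2.34 log2 units (SE 0.53), 5.07-fold with an interval from 2.36-fold to 10.9-fold, and its unadjusted limma p of 0.000226 was rank 4 of all genes. Acly was lower by 1.62 (SE 0.48), 3.07-fold with an interval from 1.54-fold to 6.14-fold, at rank 30. Acaca was lower by 1.56 (SE 0.60, unadjusted limma p = 0.0155), Me1 by 1.26 (SE 0.53, p = 0.0268) and Fasn by 0.97 (SE 0.45, p = 0.0421). The fitted values of the rest were -0.99 for Pnpla3 (SE 0.66), -0.95 for Mlxipl (SE 0.86), -0.95 for Thrsp (SE 0.56), -0.40 for Acacb (SE 0.54) and -0.23 for Srebf1 (SE 0.37), each with an interval that included 0. With the scan day as the block 3 of 10 members were under an unadjusted 0.05, Elovl6, Acly and Acaca, beside 3.63% of all genes, while Me1 was -0.97 (unadjusted limma p = 0.0664) and Fasn -0.73 (0.102). Without Week 3 there were 8 of 10, beside 4.51% of all genes, with Mlxipl (-1.73), Thrsp (-1.37) and Pnpla3 (-1.53) added. The LFC array of Week 12 carried much of these values for 4 of the 5. Without it Elovl6 was -1.59 (unadjusted limma p = 0.00167), Acly -1.0 (0.0306), Me1 -0.95 (0.113) and Acaca -0.81 (0.147), while Fasn by its bright probe, saturated on that array, went the other way to -1.15 (0.0296). The dim Fasn probe was not refitted without that array. Its lowest difference from LFC was at Week 12 in each high fat diet. It was -7.90 in HFC, -4.93 in HF5, -4.89 in HF20 and -5.50 in HF75.

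**Figure D3:**
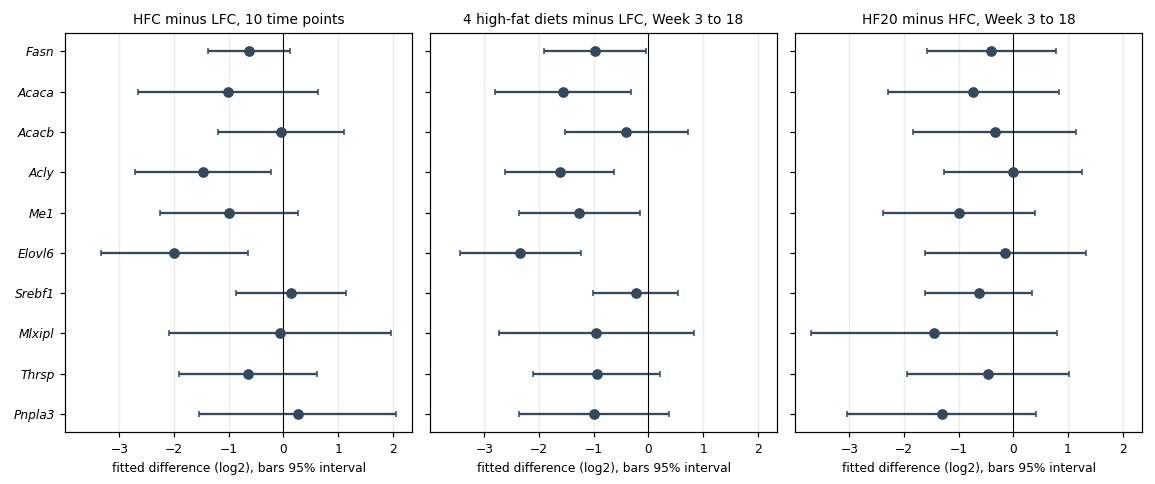
Fitted log2 difference (x axis) of each of the 10 genes (y axis) in HFC minus LFC over 10 time points, in the mean of the 4 high fat diets minus LFC from Week 3 to Week 18, and in HF20 minus HFC, with bars for the 95% interval from limma. Elovl6 lies farthest left in the first and second panels, at -1.99 and -2.34, and all 10 intervals include 0 in the third.

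Other probes of the same genes gave values on the same side. In a fit of 29457 probes, none called, the dim Fasn probe was lower on high fat by 2.04 (SE 0.72, unadjusted limma p = 0.00924), more than the saturated probe's 0.97. That fit kept the LFC array of Week 12. Acaca probes P23177, P439426 and P595124 gave -1.36, -1.21 and -0.59, beside -1.56 for P318040, and the Mod1 probe gave -1.49. With saturated spots left out, the bright Fasn probe gave -1.43 (unadjusted limma p = 0.00237), and Elovl6 -1.59 with p = 0.00169, the latter because the LFC value of Week 12 drops out.

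The weeks did not contribute alike. At Week 3 the mean of the high fat arrays was above LFC for all 10 members, with a median difference of 1.23. At Week 6 it was below for 6 members, at Week 9 for 9, at Week 12 for 10, at Week 15 for 9 and at Week 18 for 10, with medians of -0.15, -1.97, -3.52, -0.69 and -1.84. LFC lay above all high fat arrays of its week for no member at Week 3, 1 at Week 6, 7 at Week 9, 9 at Week 12, 5 at Week 15 and 8 at Week 18. These counts rest on 1 LFC array a week. The share of all genes was not counted by week, so they do not set the members apart from other genes. The member that missed at Week 12 was Fasn by its bright probe, which was saturated in LFC at 6.03 and read 7.39 in HF20. By the dim probe LFC read 5.92 there and the high fat arrays 1.03 at most. Elovl6 was the most regular of them, with LFC above all high fat arrays at 5 of 6 weeks and 21 of 23 high fat arrays below the LFC array of their week. The lowest share of arrays below LFC was that of Srebf1, with 12 of 24. Acacb was well above background on only 2 of 6 LFC arrays and no HF5 array of these weeks, so its order within weeks is largely one of background values.

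Taken diet by diet, and with the LFC arrays shared by all 4 comparisons, Elovl6 and Acly were the members lower than LFC at an unadjusted 0.05 in each. In HFC from Week 3 to Week 18, Elovl6 was -2.09 (SE 0.67) and Acly -1.56 (SE 0.61), 2 of 10 members beside 2.8% of all genes. With the scan day as the block Acly was -1.24 there and past the mark no longer (unadjusted limma p = 0.0567). Other settings added members in HFC. With saturated spots left out Fasn went from -0.77 to -2.0 (unadjusted limma p = 0.00223). Without Week 3 Acaca went from -1.01 to -1.98 (0.0127) and Me1 from -0.91 to -1.71 (0.00935). In HF5 6 of 10 members were lower beside 1.42% of all genes: Elovl6 -2.63, Acaca -2.01, Acly -1.66, Thrsp -1.59, Me1 -1.55 and Fasn -1.46. In HF20 4 of 10 were lower beside 1.15%: Elovl6 -2.24, Me1 -1.91, Acaca -1.75 and Acly -1.56. In HF75 2 of 10 were lower beside 2.85%: Elovl6 -2.40 and Acly -1.70. With Week 3 left out, Acaca in HF75 went from -1.48 to -1.82 and Me1 from -0.66 to -1.5. Both then had an unadjusted limma p under 0.05. No gene passed an adjusted p of 0.05 in any of the 4 in limma, and 5.06% in HFC, 2.45% in HF5, 2.84% in HF20 and 3.63% in HF75 had an unadjusted one in either direction. Every HF5 array lay below every LFC array for 1 member, Elovl6, with HF5 from -0.99 to -0.38 and LFC from -0.22 up, as for 8 of 21092 genes, 0.0379%. With the HF5 and HF20 arrays of Week 12 exchanged, HF5 would reach 0.58 and overlap LFC, and the fitted Elovl6 values would be -2.44 in HF5 and -2.48 in HF20. Thrsp in HF5 would then be -1.31 with an unadjusted limma p of 0.0829. In HFC, HF20 and HF75 the separation held for no member, and over all genes for 0.0142%, 0% and 0.0284%. Without the LFC array of Week 12 Elovl6 lay between -1.88 and -1.35 and stayed under an unadjusted 0.05 in the 4 diets. Acly lay between -1.09 and -0.94 and was past that mark in none of them (unadjusted limma p of 0.0529 to 0.0904). In HF5 Acaca (-1.27), Me1 (-1.23) and Thrsp (-1.41) then lost the mark too, leaving Elovl6 and Fasn. In HF20 Acaca (-1.0) lost it, Elovl6 and Me1 kept it, and Fasn gained it (-1.35, unadjusted limma p = 0.0361).

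The third comparison asked whether a dose of KAL-1 changed the members on the high fat diet. In the fit over all 6 weeks no member differed from HFC at an unadjusted 0.05 at any dose. HF5 minus HFC ran from -1.62 (Pnpla3, unadjusted limma p = 0.0649) to -0.10, HF20 minus HFC from -1.45 to -0.002, and HF75 minus HFC from -0.62 to 0.29. Below 0 were 10 of 10 members in HF5, beside 49.8% of all genes, 10 of 10 in HF20, beside 44.5%, and 6 of 10 in HF75, beside 49.8%. The 3 comparisons share the HFC arrays, whose Week 3 array was high for most members. Over all genes 1.36%, 4.22% and 5.02% were under an unadjusted 0.05 and none under an adjusted 0.05. Week 3 and Week 12 bore on this, in opposite ways. Without Week 3 no member passed an unadjusted 0.05 at any dose, beside 1.27%, 2.21% and 2.7% of all genes. Below 0 were then 9 of 10 members in HF5, 7 in HF20 and 2 in HF75. With Week 12 left out instead, 6 of 10 members were lower in HF5 at an unadjusted 0.05, beside 4.21% of all genes in either direction: Pnpla3 (-2.60, unadjusted limma p = 0.00144), Mlxipl (-2.43), Acaca (-1.56), Acacb (-1.49), Fasn (-1.23) and Srebf1 (-0.91). In HF20 there were 3 of 10, beside 7.88%: Mlxipl (-2.39), Pnpla3 (-1.89) and Srebf1 (-1.0). With the scan day as the block there were 5 of 10 in HF5, beside 5.08% of all genes, and 3 of 10 in HF20, beside 7%, Pnpla3 and Mlxipl among them at both doses. At Week 12 HFC was scanned on another day than HF5 and HF20, so this setting overlaps with leaving out Week 12. With the HF5 and HF20 arrays of Week 12 exchanged, Pnpla3 alone passed, in HF5 (-1.90, unadjusted limma p = 0.0293). None had an adjusted p under 0.05 in these settings. The intervals over all 6 weeks were wide: for Elovl6 in HF20 it ran from -1.62 to 1.32, so differences of either sign were within reach, and these data do not show that a dose left the genes as they were.

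The fourth comparison fitted a straight change per week from Week 3 to Week 18 across diets. Here 20 of 21092 genes, 0.0948%, passed an adjusted p of 0.05 and 15.5% an unadjusted one, and no member did either. The members' log2 change per week was -0.0013 for Fasn, -0.016 for Acaca, 0.0046 for Acacb, -0.0023 for Acly, 0.013 for Me1, 0.022 for Elovl6, -0.038 for Srebf1, -0.063 for Mlxipl, -0.0067 for Thrsp and -0.017 for Pnpla3, with SEs of 0.031 to 0.076.

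Genes around the pathway were read as lists. Of 36, 4 were lower on the 4 high fat diets than in LFC at an unadjusted 0.05 and none was higher, beside 2.44% lower and 1.83% higher over all genes, and their median was -0.05, beside -0.04. The 4 were suppliers of the pathway's inputs. Slc25a1, the mitochondrial citrate carrier, was lower by 1.57, and Acss2, which makes acetyl-CoA from acetate, by 1.60, 2 of 4 genes of citrate and acetyl-CoA supply. Tkt and Pgd of the pentose phosphate pathway were lower by 1.05 and 0.76, 2 of 5 genes of NADPH supply. Of 6 genes of desaturation and elongation none passed, with Scd1, the stearoyl-CoA desaturase, at -1.0 (SE 0.55) and Scd2 at -0.64. Of 15 regulators of SREBP processing, LXR, USF and AMPK none passed, with a median of 0.03, and the closest were Mbtps2 at 0.47 and Insig1 at -0.54. None of the 4 genes of mitochondrial fatty acid synthesis passed, with Mecr at -0.76 and Mcat at -0.23, nor did the Pnpla3 relatives Pnpla5 at -0.26 and Pnpla2 at -0.05. In HFC minus LFC over 10 time points no gene of the 36 passed. In HF5 and HF20 minus HFC 1 of 36 did, Usf1, at 0.64 and 0.63, beside 1.36% and 4.22% of all genes, and in HF75 none.

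The members' levels were correlated from array to array. Over the 45 pairs Pearson's r ran from 0.43 (Fasn with Acacb) to 0.91 (Acly with Elovl6), the median being 0.71, and Spearman's rho from 0.35 to 0.93, over 38 or 39 arrays. After adjustment over the 45 pairs the largest permutation p was 0.00701 for r and 0.0338 for rho. Without the 2 arrays farthest from the median of the first gene r ran from 0.41 to 0.89. On residuals after diet and time point, r lay between 0.20 and 0.90 (median 0.67). Such residuals are not independent, and the permutations took no account of that, so their p-values may be too small. By them 44 of 45 pairs kept an adjusted permutation p under 0.05. The exception was Fasn with Elovl6, at 0.20, and the highest was Srebf1 with Mlxipl, the pair of transcription factors. The Fasn pairs rest on the probe that was saturated on 11 arrays. With saturated spots left out, r of the levels went from 0.50 to 0.59 for Fasn with Elovl6, from 0.64 to 0.90 for Fasn with Acaca and from 0.43 to 0.37 for Fasn with Acacb, and the residuals were not recomputed that way. All points share their arrays and the scaling of each array, and with quantile normalization the median r was 0.74.

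**Figure D4:**
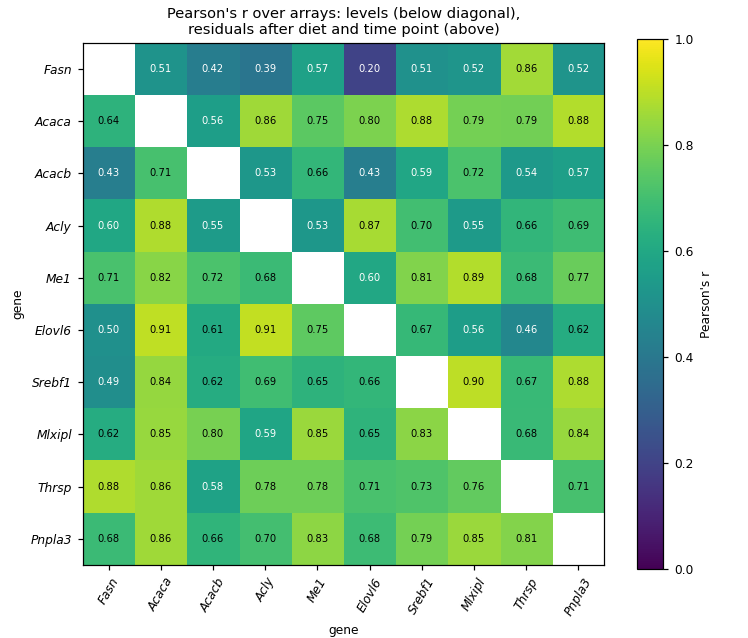
Pearson's r between each pair of the 10 genes over 38 or 39 arrays, from levels (below the diagonal) and from residuals after diet and time point (above), on a colour scale from 0 to 1. Every cell below the diagonal lies between 0.43 and 0.91, and the lowest cell above it is Fasn with Elovl6 at 0.20.

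Among 22706 genes, those whose levels followed the mean of the 10 members most closely over 39 arrays were Acss2 (r = 0.96), Gm7049 (0.95), Echdc1 (0.94), Pcx (0.94) and 2010003K11Rik (0.94). Acss2 makes acetyl-CoA from acetate, and Pcx is pyruvate carboxylase, which refills the citrate cycle. The members were standardised before their mean was taken.

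Markers of the cell types that a piece of subcutaneous fat can hold moved with the members too. In these bulk samples, fewer cells of a type and less RNA per cell cannot be told apart. Against the mean of the members, over 39 arrays, the mean of 8 mature adipocyte markers gave r = 0.73 and rho = 0.79, and that of 5 brown or beige adipocyte markers r = 0.82 and rho = 0.78, each with an adjusted permutation p of 4e-05 over 8 lists. The 6 skeletal muscle markers gave r = 0.43 (adjusted permutation p = 0.0127), 3 liver markers 0.38 (0.0253), and 6 markers of mammary and simple epithelium -0.57 (0.00048). Lymphocyte, macrophage and skin markers gave -0.33, -0.23 and -0.20, with adjusted permutation p of 0.0555, 0.178 and 0.212. Spearman's rho was 0.40 for muscle, 0.55 for liver, -0.51 for epithelium, -0.41 for lymphocyte, -0.34 for macrophage and -0.19 for skin, and only skin had an adjusted permutation p above 0.05 for rho, at 0.246. Without the 2 arrays farthest from the median of the members' mean, the 5 lists that passed kept their sign, at 0.73, 0.79, 0.36, 0.42 and -0.46. Arrays extreme for a list were not left out.

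The arrays where the members were highest were also high for the brown or beige markers, which were Ucp1, Cidea, Cox7a1, Cox8b and Elovl3. The summed level of that list was 8.08 at LFC Day 6 and 7.08 at LFC Week 12, in a range of -0.14 to 8.08 for LFC and 0.92 to 7.83 for HFC over the 10 time points. From Week 3 to Week 18 it ran from -0.14 to 7.08 in LFC, 0.92 to 6.08 in HFC, -0.48 to 6.15 in HF5, 1.05 to 8.40 in HF20 and 0.24 to 8.53 in HF75, and Elovl3 was not above background in HFC and HF5. The list's medians differed in the direction of the members: 5.22 in LFC and 2.68 in HFC over the 10 time points, and from Week 3 to Week 18 4.5 in LFC, 2.14 in HFC, 2.47 in HF5, 2.99 in HF20 and 4.27 in HF75. The list was higher in LFC than in HFC from Week 9 on and lower at Week 3 and Week 6, as was Acly. The summed mature adipocyte markers overlapped fully, from 7.03 to 10.1 in LFC and from 7.27 to 9.82 over the other diets. From Week 3 to Week 18 the muscle markers ran from 1.12 to 5.92 in LFC and from 0.27 to 10.2 over the other diets, highest in HF75 at Week 3. At Day 6, where the members were high in both diets, they stood at 8.15 in LFC and 8.53 in HFC. The milk gene Csn2 was not above background in any group. The part of these cell types in the diet differences was not tested.

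**Figure D5:**
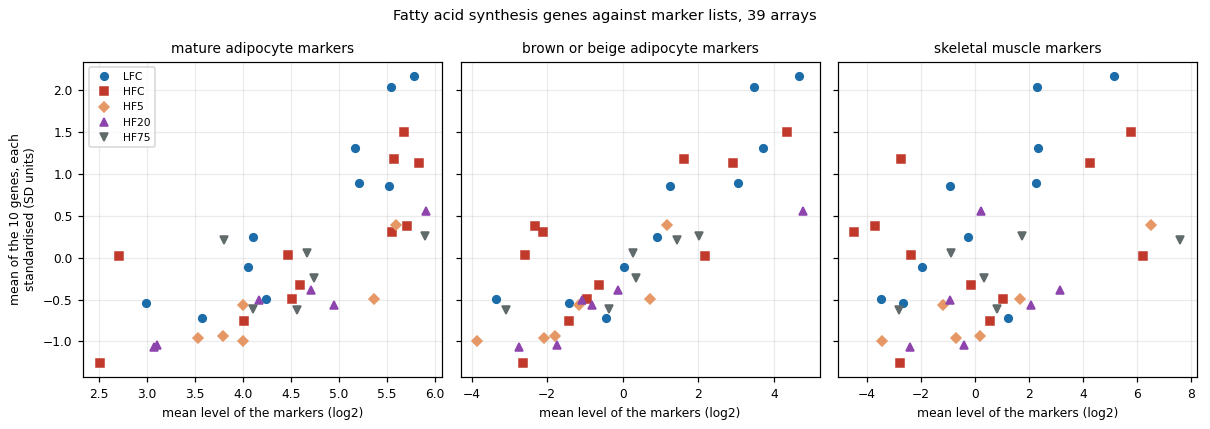
Mean of the 10 genes, each standardised over the arrays (y axis, SD units), against the mean level of the markers of mature adipocytes, brown or beige adipocytes and skeletal muscle (x axes, log2), for each of the 39 arrays, coloured by diet. The points rise from left to right most closely for brown or beige markers (r = 0.82) and least for muscle (r = 0.43).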

How the data were processed

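Total RNA of mouse subcutaneous adipose tissue was read on 39 one-colour Agilent arrays. The array files deposited by the authors hold spot intensity values in scanner units. Per the file headers they come from a later version of Agilent Feature Extraction than the 9.1 of the submitters' processing notes, with the background subtracted and no scaling between arrays. They also hold deposited flags per spot (well above background, saturated, outlier), read as other values of 0 or 1. Log2 ratios over the LFC array, made by the authors in GeneSpring GX and deposited for the series, served only to check labels. The array annotation is on mm9, so no gene coordinates are given from it.

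Here log2 intensity minus the log2 75th percentile of each array was taken, outlier spots were left out, and spots of a probe were averaged. The brightest probe by mean stands for a gene. A gene was tested when well above background on at least 10 of 20 arrays (HFC and LFC) or 6 of 30 (Week 3 to Week 18). Comparisons were fitted in limma 3.58.1 (R 4.3.3) blocked on time point (for the weekly change, diet was the covariate and there was no block), two-sided, with Benjamini-Hochberg adjustment over all genes tested at 0.05. The replicates are time points, so p-values measure the spread of diet differences over time, which may be technical in part. The number of arrays limits the precision. The fits were tested on simulated data. Correlations used 100000 permutations, in Python 3.11.15. Members and lists were chosen with earlier results of these data known, and alternatives added after seeing the data are named as such in the closing section. The members are described in every comparison, and of each pathway list the 2 genes with the smallest p.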

Additional observations from a re-analysis of the deposited data

Results flagged for a closer look

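Of 70 groups of 5 to 10 arrays tested for a single array far from the rest, 3 had one, and chance flags about 1 in 20. Elovl6 at HFC Week 3 read 2.21, with the nearest of the 6 HFC arrays at -0.21. Acaca at HF20 Week 12 read -0.27, with the nearest HF20 array at -1.82, and Srebf1 at HF5 Week 12 read 4.75, with the nearest HF5 array at 3.45. The arrays of HF5 and HF20 at Week 12 are the pair whose deposited ratios matched each other's label.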

How the results depend on the processing

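Over 29 alternative settings 1720 member values were refitted: HFC minus LFC, the 4 high fat diets, each KAL-1 dose minus HFC, the change per week, and the single diets for the members under an unadjusted 0.05 there. Of these 1607 kept their direction and their side of an adjusted p of 0.05, while 113 changed sign. Of them 1 reached an adjusted limma p of 0.05, Acacb in HF20 minus HFC with normexp, at 1.64 (adjusted p 0.0163) against -0.34. In the comparisons with LFC the smallest was 0.145 for Elovl6 on the 4 high fat diets without Week 3. The other member values of the single diets against LFC and of early against late were refitted too, and none reached an adjusted 0.05. Their sign changed in 43 of 219 values of early against late, 22 of 191 in HFC, 0 of 95 in HF5, 3 of 143 in HF20 and 22 of 191 in HF75. In the same order 0, 8, 14, 17 and 5 of them had an unadjusted limma p under 0.05. The Elovl6 difference of the 4 high fat diets ran from -2.92 (without Week 3) to -1.59 (without Week 12), with an unadjusted limma p under 0.05 in 24 of 24 settings, as had Acly. The Fasn, Me1 and Acaca values held that mark in 15, 17 and 21 of 24. In HFC minus LFC Elovl6 held it in 23 of 23 and Acly in 18 of 23. The counts of genes with an adjusted p under 0.05 differed in these cases: HF20 minus HFC had 7878 with normexp background correction against 0, HFC minus LFC from Week 3 to Week 18 had 1 with a random effect of the slide, and the change per week had 1 with normexp, 3 without the filter on background, 4 with the mean of all probes, 489 with array weights and 1 with the slide block, against 20, and between 0 (without Week 18) and 2894 (without Week 3) when a time point was left out. The cause was not tested. With normexp the median of all genes in HF20 minus HFC moved to 0.35.

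The sign of the 113 values changed as follows. For HFC minus LFC, Acacb became 0.11 with quantile normalization, 0.054 with array weights and 0.44 with the scan day as block or without Day 6 and Week 12, and Mlxipl became 0.25 with array weights, 0.87 with the scan day as block or without Day 6 and Week 12, and 0.010 without Day 6. For the 4 high fat diets, Srebf1 became 0.13 with saturated spots left out or without the LFC array of Week 12, and Acacb 0.050 without that array. For the change per week, Fasn became 0.0043 with normexp, 0.025 with saturated spots left out, 0.0023 with the slide block and 0.012 without the HF20 array of Week 15, Acacb -0.026 with quantile normalization and -0.00076 with the slide block, Acaca 0.025 with the mean of probes, Elovl6 -0.0051 with array weights, Acly 0.0058 with the slide block and 0.00049 without that HF20 array, and Thrsp 0.0032 without it. Leaving out 1 time point at a time, HFC minus LFC ran from -0.31 to 0.39 for Acacb, -0.76 to 0.69 for Mlxipl, -0.19 to 0.96 for Pnpla3 and -0.15 to 0.49 for Srebf1, and the 4 high fat diets from -0.89 to 0.026 for Acacb and -0.54 to 0.13 for Srebf1. The change per week then ran from -0.030 to 0.051 for Fasn, -0.035 to 0.027 for Acaca, -0.025 to 0.061 for Acacb, -0.015 to 0.028 for Acly, -0.048 to 0.074 for Me1, -0.0010 to 0.047 for Elovl6, -0.10 to 0.0086 for Mlxipl, -0.065 to 0.063 for Thrsp and -0.088 to 0.047 for Pnpla3.

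For the doses against HFC, HF75 minus HFC turned with normexp for Acacb (0.62) and Thrsp (-0.16), with quantile normalization for Acacb (0.022), Mlxipl (-0.0085) and Thrsp (-0.096), with array weights for Acaca (0.16), Acly (0.47), Elovl6 (0.015), Srebf1 (0.14) and Pnpla3 (0.12), with the scan day as block for Acacb (0.00077), with the slide block for Acaca (0.27), Acacb (0.20), Acly (0.084), Srebf1 (0.29) and Pnpla3 (0.26), without the HF75 array of Week 3 for Acly (0.10), Me1 (-0.21) and Mlxipl (-0.72), and without it and the HF5 array of Week 12 for the same members (0.087, -0.20 and -0.70). With saturated spots left out Fasn became 0.24 in HF5 and 0.53 in HF20 minus HFC, and in HF75 it was 1.5 with an unadjusted limma p of 0.0157. Acacb in HF20 became 0.51 with outlier spots kept. Acly became 0.40 in HF5 and 0.17 in HF20 with array weights, and in HF5 0.18 with the Week 12 arrays exchanged and 0.16 without the HF75 array of Week 3 and the HF5 array of Week 12. Leaving out 1 time point at a time, Acly ran from -0.36 to 0.19 in HF5. In HF20 Acacb ran from -1.07 to 0.19, Acly from -0.38 to 0.35, Elovl6 from -0.36 to 0.30 and Thrsp from -1.20 to 0.18, with 0.072 for Thrsp without Week 3, the time point of the array with most muscle signal. In HF75 the ranges were -0.0030 to 0.68 for Fasn, -0.94 to 0.17 for Acaca, -0.51 to 0.23 for Acacb, -0.40 to 0.44 for Acly, -0.48 to 0.15 for Elovl6, -0.30 to 0.12 for Srebf1 (0.072 without Week 3), -0.46 to 0.54 for Mlxipl, -0.31 to 0.76 for Thrsp and -1.23 to 0.026 for Pnpla3.

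The alternatives without the LFC array of Week 12, without the HF20 array of Week 15, without Day 6 and Week 12, without the HF75 array of Week 3 alone or with the HF5 array of Week 12, and with every probe on its own were added after seeing the data. The slide block could not be fitted for HFC minus LFC over 10 time points, where 1 slide is shared. The fits blocked on time point pair the diets within a time point. Beyond that no paired analysis was possible because there is 1 array per diet and time point, and only a few titles carry a replicate mark (at Week 3 R2 for LFC, HF5 and HF20 but R3 for HFC). The ceiling of the scanner limits Fasn, Thrsp, Me1, Elovl6 and Srebf1 from above, and the background limits Acacb from below.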

Other observations

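HFC at Day 1 has no LFC array and entered no comparison. On that array Fasn read 5.29, Acaca -0.66, Acacb -3.25, Acly -0.97, Me1 4.71, Elovl6 -0.26, Srebf1 2.80, Mlxipl 3.81, Thrsp 2.87 and Pnpla3 0.21. It was the lowest of the 39 arrays for Acly, while Mlxipl and Acacb there were among the 5 highest. Day 14 and Week 0, which are the same age on diet by the study's count, read 1.95 and 1.80 for Elovl6 in LFC and 0.13 and 0.17 in HFC, and 2.01 and 1.18 for Acly in LFC and 1.34 and 0.57 in HFC.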
